A study of Mus musculus with 22 samples.

Results

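hnRNP A1 footprints were examined in 9 genes that encode RNA-binding proteins linked to neurodegeneration and to stress granules: Ewsr1, Taf15, Tardbp, Matr3, Tia1, Atxn2, G3bp1, G3bp2 and Fmr1. A footprint was taken as a member of a gene when it overlapped the annotated span by at least 1 nt, which gave 148 of the 136207 footprints of the 10 mice. All 9 genes had a footprint in at least 1 mouse, where 45.6% of the 21938 protein-coding genes of the annotation did. The rule that assigns footprints uses the names of the genes, but the genes were picked with earlier results of these data known, so the difference between these shares is a description.

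The footprints came from CLIPseq of mouse spinal cord, in which UV light crosslinks proteins to RNA, an antibody recovers the RNA attached to hnRNP A1, and that RNA is sequenced. Groups of female C57BL/6N mice were compared: 3 naïve mice, 3 mice with mild EAE (clinical scores 1.0 to 1.5) and 4 mice with severe EAE (2.5 to 3.0). EAE, experimental autoimmune encephalomyelitis, was induced with the myelin peptide MOG(35-55), given in an emulsion of complete Freund's adjuvant, and with pertussis toxin, and tissue was taken 15 days after onset. Immunization was at 12 weeks of age according to the labels, whereas the design text of the series gives 8 weeks, and naïve mice were age-matched. Mice keep the numbers of their labels: naïve mice 1, 2 and 3, mild EAE mice 3, 4 and 7, and severe EAE mice 1, 2, 5 and 6. The same number in a naïve and an EAE mouse does not mean the same animal. EAE is a model of inflammatory demyelination that is started by immunization, and whole cord was used, so RNA of neurons, glia and infiltrating cells was read together.

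hnRNP A1 is a nuclear RNA-binding protein that takes part in splicing and shuttles to the cytoplasm, where it can enter stress granules, the assemblies of stalled mRNAs and proteins that form when translation is arrested. It prefers RNA that contains UAG. The 9 genes encode proteins of the same kind: EWSR1 and TAF15 are paralogs that act in transcription and splicing, TDP-43 (from Tardbp) and matrin 3 (from Matr3) are nuclear proteins altered in amyotrophic lateral sclerosis, and TIA1, ataxin-2, G3BP1, G3BP2 and FMRP (from Fmr1) occur in stress granules or neuronal granules. A footprint in such a gene lies on its transcript and says nothing of a contact between the proteins.

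The footprint lists differed greatly in length. They held 17119 to 17494 footprints in naïve mice, 9751 to 24433 in mild EAE, and 209, 673, 2670 and 31870 in severe EAE mice 2, 6, 1 and 5. The lists give positions without strand, score or read count, so the depth behind a footprint is unknown and a gene without a footprint is one where none was retained. Naïve mice 1, 2 and 3 had footprints in 5, 5 and 7 of the 9 genes, and mild EAE mice 3, 4 and 7 in 6, 3 and 9. Severe EAE mouse 5 had footprints in 8 of them, severe EAE mice 1 and 6 in Atxn2 only, and severe EAE mouse 2 in none. Summed over the 9 genes, 1571, 1041 and 2190 nt were covered in naïve mice 1, 2 and 3, 1612, 357 and 2485 nt in mild EAE mice 3, 4 and 7, and 80, 0, 4024 and 371 nt in severe EAE mice 1, 2, 5 and 6. This sum followed the size of the whole list (Pearson's r = 0.948 over the 10 mice, given as a description, since both values come from the same list). The highest sum was in the mouse with the longest list and the sum of 0 in the mouse with the shortest, as the plot of the 9 genes beside list size shows.

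**Figure D1:**
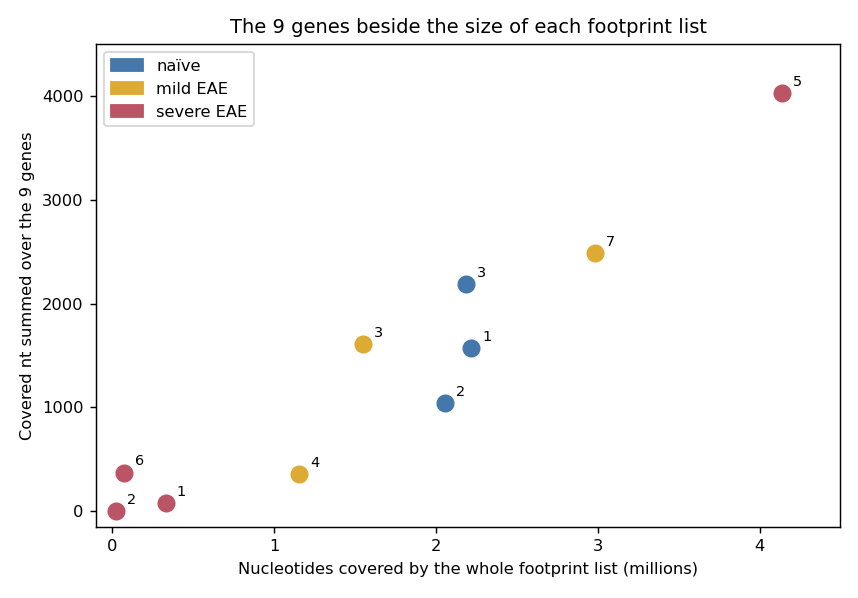
Covered nucleotides summed over the 9 genes (y axis, nt) beside the nucleotides covered by the whole footprint list of the same mouse (x axis, in units of 1000000 nt). Each point is 1 of the 10 mice, labelled with its number and coloured by group. Severe EAE mouse 5, with 4024 nt, lies at the upper right and severe EAE mice 1, 2 and 6, with 80, 0 and 371 nt, at the lower left.

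Of the paralogs Ewsr1 and Taf15, Ewsr1 was the most densely footprinted of the 9 genes, with 36 footprints in 7 mice that together covered 69.3% of the coding sequence of its principal transcript. Ewsr1 lies on chr11:5069689-5099266, minus strand. Its covered length was 366, 394 and 291 nt in naïve mice 1, 2 and 3, 269, 137 and 721 nt in mild EAE mice 3, 4 and 7, 1088 nt in severe EAE mouse 5 and 0 in severe EAE mice 1, 2 and 6. The 2 highest values were thus in EAE mice with long lists and the naïve values lay between the EAE extremes. Exon 12, which encodes part of the RNA recognition motif, was footprinted in all 3 naïve mice, in mild EAE mouse 3 and in severe EAE mouse 5. The 5 mice shared 100 nt, chr11:5072824-5072923, which held neither UAG nor AGGU. Exon 7, in the part of the gene that encodes the repeated serine-tyrosine-glycine-glutamine region, was also footprinted in 5 mice, namely naïve mice 2 and 3, mild EAE mice 4 and 7 and severe EAE mouse 5. Its 94-nt stretch chr11:5083453-5083546, covered in 4 of them, held 1 UAG. Exon 11, next to exon 12 in the transcript, was footprinted in mild EAE mice 3 and 7 and severe EAE mouse 5 and in no naïve mouse. The stretches of exons 12 and 7 are shown because they were found in the most mice, and that of Taf15 exon 11 because it is the matching exon of the paralog; capitals mark UAG (written TAG) and AGGU (AGGT), read on the strand of the gene, 5′ to 3′, in GRCm38.
Ewsr1 exon 12, chr11:5072824-5072923: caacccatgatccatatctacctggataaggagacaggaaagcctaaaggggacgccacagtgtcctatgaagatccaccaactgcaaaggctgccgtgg
Ewsr1 exon 7, chr11:5083453-5083546: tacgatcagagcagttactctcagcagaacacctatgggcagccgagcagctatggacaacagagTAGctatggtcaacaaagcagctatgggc
Taf15 exon 11, chr11:83501115-83501230: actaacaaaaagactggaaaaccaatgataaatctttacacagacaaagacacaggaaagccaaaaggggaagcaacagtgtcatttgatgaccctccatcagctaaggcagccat

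Taf15, on chr11:83473086-83506743, plus strand, had 22 footprints in the same 7 mice as Ewsr1. The covered length was 109, 117 and 491 nt in naïve mice 1, 2 and 3, 455, 81 and 334 nt in mild EAE mice 3, 4 and 7, 405 nt in severe EAE mouse 5 and 0 in the other severe EAE mice. Naïve mouse 3 thus resembled mild EAE mouse 3 and severe EAE mouse 5 more than the other naïve mice. Taf15 exon 11, footprinted in naïve mouse 3 and mild EAE mouse 7, has 73 of 98 aligned nt in common with the Ewsr1 exon 12 stretch (74.5%), so the genes can be told apart there. Exon 15, which encodes the long run of arginine-glycine-rich repeats, held 2 separate footprinted stretches. The first was covered in naïve mouse 3, mild EAE mice 3 and 7 and severe EAE mouse 5, and the second, further downstream, in naïve mice 1 and 2 and in no other mouse. The sequences of these stretches are alike because the exon is a repeat, and they are shown to let the reader see what distinguishes them. The first holds 2 UAG and 2 AGGU, the second 1 of each.
Taf15 exon 15, first stretch, chr11:83504749-83504849: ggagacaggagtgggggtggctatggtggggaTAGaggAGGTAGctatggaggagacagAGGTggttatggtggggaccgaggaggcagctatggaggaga
Taf15 exon 15, second stretch, chr11:83504996-83505092: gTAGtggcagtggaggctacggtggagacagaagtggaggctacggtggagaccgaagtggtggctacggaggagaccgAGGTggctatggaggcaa
Over all its footprints Taf15 had 14.6 AGGU per 1000 nt, beside 4.15 in the footprints of other protein-coding genes, and Ewsr1 had 0.612. G3bp1 had 16.1, from 5 footprints of 2 mice, of which 4 lie in the same exons, 5 and 6. Footprints of different mice at 1 site repeat the same sequence, so these densities describe sites and not independent observations.

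Tia1 encodes TIA1, which has 3 RNA recognition motifs and a prion-like tail and nucleates stress granules. The gene lies on chr6:86404219-86433405, plus strand. The covered length was 259, 117 and 361 nt in naïve mice 1, 2 and 3, 154, 0 and 140 nt in mild EAE mice 3, 4 and 7, 300 nt in severe EAE mouse 5 and 0 in severe EAE mice 1, 2 and 6. All naïve mice and 3 of the 7 EAE mice therefore had footprints, and the naïve range of 117 to 361 nt enclosed the 3 EAE values above 0. The footprints were concentrated at the 5′ end of the coding sequence. Exons 3 and 4, which encode part of the first RNA recognition motif, were each footprinted in the same 6 mice, the largest number of mice at any site of the 9 genes. Exon 3 was covered up to its last base in all 6 and exon 4 from its first base in all 6, so that the footprints met at the ends of the intron between them.
Tia1 exon 3, chr6:86416348-86416401: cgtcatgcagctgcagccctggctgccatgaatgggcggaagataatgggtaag
Tia1 exon 4, chr6:86418878-86418920: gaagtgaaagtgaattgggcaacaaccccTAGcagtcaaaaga
The other end of the exon 4 footprint differed between mice. In naïve mice 1 and 2 it coincided with the last base of the 55-nt exon and in naïve mouse 3 it fell 12 nt short of it. In mild EAE mice 3 and 7 and severe EAE mouse 5 the footprint ran 26, 28 and 27 nt past the exon end into intron 4. The naïve and EAE mice with this footprint did not overlap in this position, which was noticed after the footprints had been seen and was given no test. It is a single footprint end picked from the many ends in the 9 genes. How many other ends separate the mice in this way was not counted, so it is not read as a difference between the groups. Naïve mouse 1 had a footprint over exon 5 that ran into the next intron in a similar way, by 30 nt, so intron bases were not restricted to EAE mice. The annotation holds retained-intron transcripts that cover these intron 4 bases. The bases around the exon end are shown with the exon in small letters and the 26 intron bases covered in the 3 EAE mice in capitals, beginning with the GT of the splice donor.
Tia1 end of exon 4, chr6:86418921-86418958: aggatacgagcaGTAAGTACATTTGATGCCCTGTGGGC

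**Figure D2:**
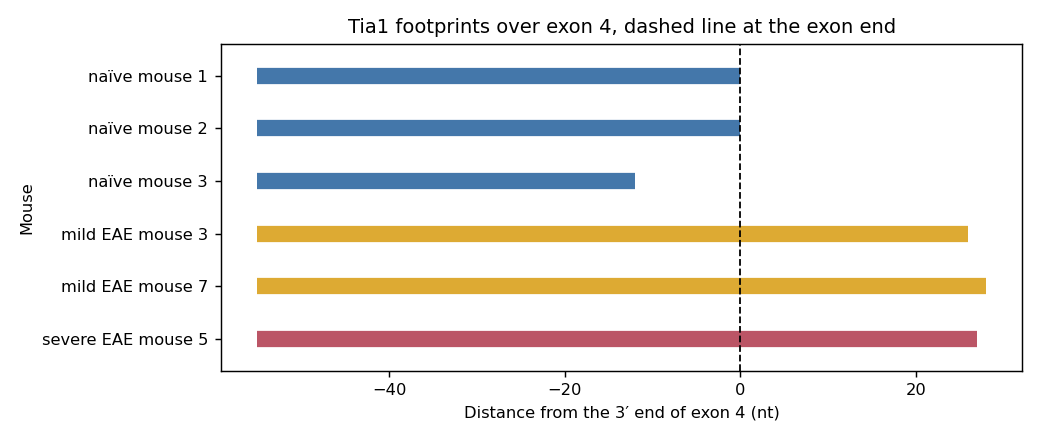
Extent of the Tia1 footprint over exon 4 in the 6 mice that had one, as distance from the 3′ end of the exon in nt (x axis), with 1 bar per mouse coloured by group (naïve blue, mild EAE yellow, severe EAE red). Bars of the naïve mice end at 0, 0 and −12 nt and those of the 3 EAE mice at 26, 28 and 27 nt.

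Atxn2 encodes ataxin-2, a cytoplasmic protein that binds the poly(A)-binding protein and whose glutamine repeat is expanded in spinocerebellar ataxia. The gene lies on chr5:121711337-121816493, plus strand, and was the only 1 of the 9 with footprints in 9 mice. The covered length was 417, 289 and 234 nt in naïve mice 1, 2 and 3, 297, 139 and 284 nt in mild EAE mice 3, 4 and 7, and 80, 0, 406 and 371 nt in severe EAE mice 1, 2, 5 and 6. The groups overlapped, and severe EAE mouse 6 reached 371 nt with a list of 673 footprints. The 5 footprints that the short lists of severe EAE mice 1, 2 and 6 held in the 9 genes all lay in Atxn2. Exons 6 and 7 were both footprinted in mild EAE mice 4 and 7 and severe EAE mice 5 and 6. No naïve mouse had a footprint there, and no stretch of Atxn2 was shared by 2 naïve mice. The site was picked after the footprints had been seen and was given no test. How many other sites split the mice in this way was not counted, so it is not read as a difference between the groups. In all 4 mice the exon 6 footprint ended at the last base of the exon and the exon 7 footprint began at the first base of the next. Mild EAE mice 4 and 7 had the same start and end at both exons (chr5:121772697-121772788 and chr5:121777370-121777416), and only 6 pairs of footprints in the 9 genes coincided in this way. Of those pairs, these 2 were the only ones in which an end lay away from an exon edge, and whether RNA passed between the 2 libraries was not tested. Between mice, 0 to 987 footprints of the whole lists had the same start and end, which was 0% to 5.92% of the shorter list. For mild EAE mice 4 and 7 there were 284, or 2.91% of the shorter list. The stretches covered in the 4 mice are shown because this was the site with the most EAE mice and no naïve mouse; the bases common to all hold neither UAG nor AGGU, but the longer exon 6 footprints of mild EAE mice 4 and 7 and severe EAE mouse 6 each hold 1 AGGU.
Atxn2 exon 6, chr5:121772700-121772788: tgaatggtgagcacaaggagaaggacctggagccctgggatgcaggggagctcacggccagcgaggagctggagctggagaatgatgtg
Atxn2 exon 7, chr5:121777370-121777396: tctaatggatgggaccccaatgacatg
The next exon, 8, was footprinted in naïve mouse 3, mild EAE mouse 3 and severe EAE mouse 5. Further downstream, exons 17, 18 and 19 were footprinted in naïve mouse 1 and mild EAE mouse 7, so Atxn2 sites were also shared across groups.

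G3bp1 and G3bp2 encode paralogous proteins that form the core of stress granules. G3bp1, on chr11:55469685-55504838, plus strand, had 5 footprints, with a covered length of 142 nt in mild EAE mouse 7, 230 nt in severe EAE mouse 5 and 0 in the other 8 mice. Only the mice with the longest and the second longest list thus had a footprint in this gene. G3bp2, on chr5:92052146-92083719, minus strand, had 13 footprints, with 160 nt in naïve mouse 3, 293 and 252 nt in mild EAE mice 3 and 7, 757 nt in severe EAE mouse 5 and 0 in the others. The naïve footprint lay in an intron and partly coincided with an intronic footprint of mild EAE mouse 7, whereas coding sequence of G3bp2 was footprinted in EAE mice only. Both genes were footprinted at exons 5 and 6, where the NTF2-like domain gives way to an acidic stretch rich in glutamate: codons 125 to 179 of G3bp1 in mild EAE mouse 7 and severe EAE mouse 5, and codons 130 to 182 of G3bp2 in mild EAE mouse 3 and severe EAE mouse 5. In the best ungapped alignment the exon 5 stretches had 29 of 45 nt in common (64.4%) and the exon 6 stretches 38 of 64 nt (59.4%). They are shown so that the paralogs can be set side by side; both G3bp1 stretches hold AGGU and that of exon 6 also UAG, and the G3bp2 stretches hold neither.
G3bp1 exon 5, chr11:55491994-55492054: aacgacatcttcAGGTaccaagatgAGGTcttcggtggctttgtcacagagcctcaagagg
G3bp2 exon 5, chr5:92066492-92066536: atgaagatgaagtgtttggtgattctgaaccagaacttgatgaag
G3bp1 exon 6, chr11:55493448-55493521: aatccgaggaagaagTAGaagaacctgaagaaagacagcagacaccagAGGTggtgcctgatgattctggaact
G3bp2 exon 6, chr5:92065788-92065854: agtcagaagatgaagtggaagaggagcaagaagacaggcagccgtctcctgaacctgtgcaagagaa

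Fmr1 encodes FMRP, a regulator of translation in neurons whose loss causes fragile X syndrome. The gene lies on chrX:68678541-68717963, plus strand, and had 3 footprints, the fewest of the 9 genes. The covered length was 144 nt in mild EAE mouse 3, 114 nt in mild EAE mouse 7 and 0 in the other 8 mice, including severe EAE mouse 5 with the longest list. Both mice were footprinted over exon 10, codons 294 to 330, in the second KH domain, and over the 3 intron bases just before it, which are the TAG of the splice acceptor. A further UAG follows within the exon. The stretch common to the 2 mice is shown because it was the only shared site of the gene.
Fmr1 exon 10, chrX:68703660-68703772: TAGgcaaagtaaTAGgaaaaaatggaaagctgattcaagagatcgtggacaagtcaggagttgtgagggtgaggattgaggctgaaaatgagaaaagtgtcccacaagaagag

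Tardbp encodes TDP-43, which binds its own transcript in the 3′ UTR. The gene lies on chr4:148612382-148627019, minus strand, and had 7 footprints in 3 mice. The covered length was 262 nt in naïve mouse 3, 102 nt in mild EAE mouse 7, 261 nt in severe EAE mouse 5 and 0 in the other 7 mice. No base of Tardbp was footprinted in more than 1 mouse. Naïve mouse 3 had 104 nt in the 3′ UTR and 158 nt in exon 6, codons 248 to 301. Mild EAE mouse 7 had codons 1 to 29, and severe EAE mouse 5 had 4 footprints between codons 45 and 207.

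Matr3 encodes matrin 3, a nuclear matrix protein with 2 zinc fingers and a pair of RNA recognition motifs. The gene lies on chr18:35562138-35593835, plus strand, and had 14 footprints in 5 mice. The covered length was 420, 124 and 391 nt in naïve mice 1, 2 and 3, 396 nt in mild EAE mouse 7, 577 nt in severe EAE mouse 5 and 0 in the other 5 EAE mice. The EAE mice with a footprint thus reached the naïve values. Most sites were found in 1 mouse only or in mice of the same kind. Naïve mice 1 and 3 shared 147 nt of exon 12 (codons 600 to 649) and 166 nt of exon 13 (codons 716 to 771), which no other mouse covered. In mild EAE mouse 7 and severe EAE mouse 5 all coding footprints lay between codons 132 and 478, and those of naïve mouse 2 between codons 384 and 425. Naïve mouse 2 and severe EAE mouse 5 had 32 nt of exon 6 in common (codons 384 to 394). All 14 footprints also overlap the span of Gm28285, a same-strand gene model that reads through Matr3, and 5 overlap the span of an antisense gene, so lists without strand cannot assign them to Matr3 alone. Of the other genes, only G3bp2 had footprints within another annotated gene, 3 of 13, in an antisense lincRNA.

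**Figure D3:**
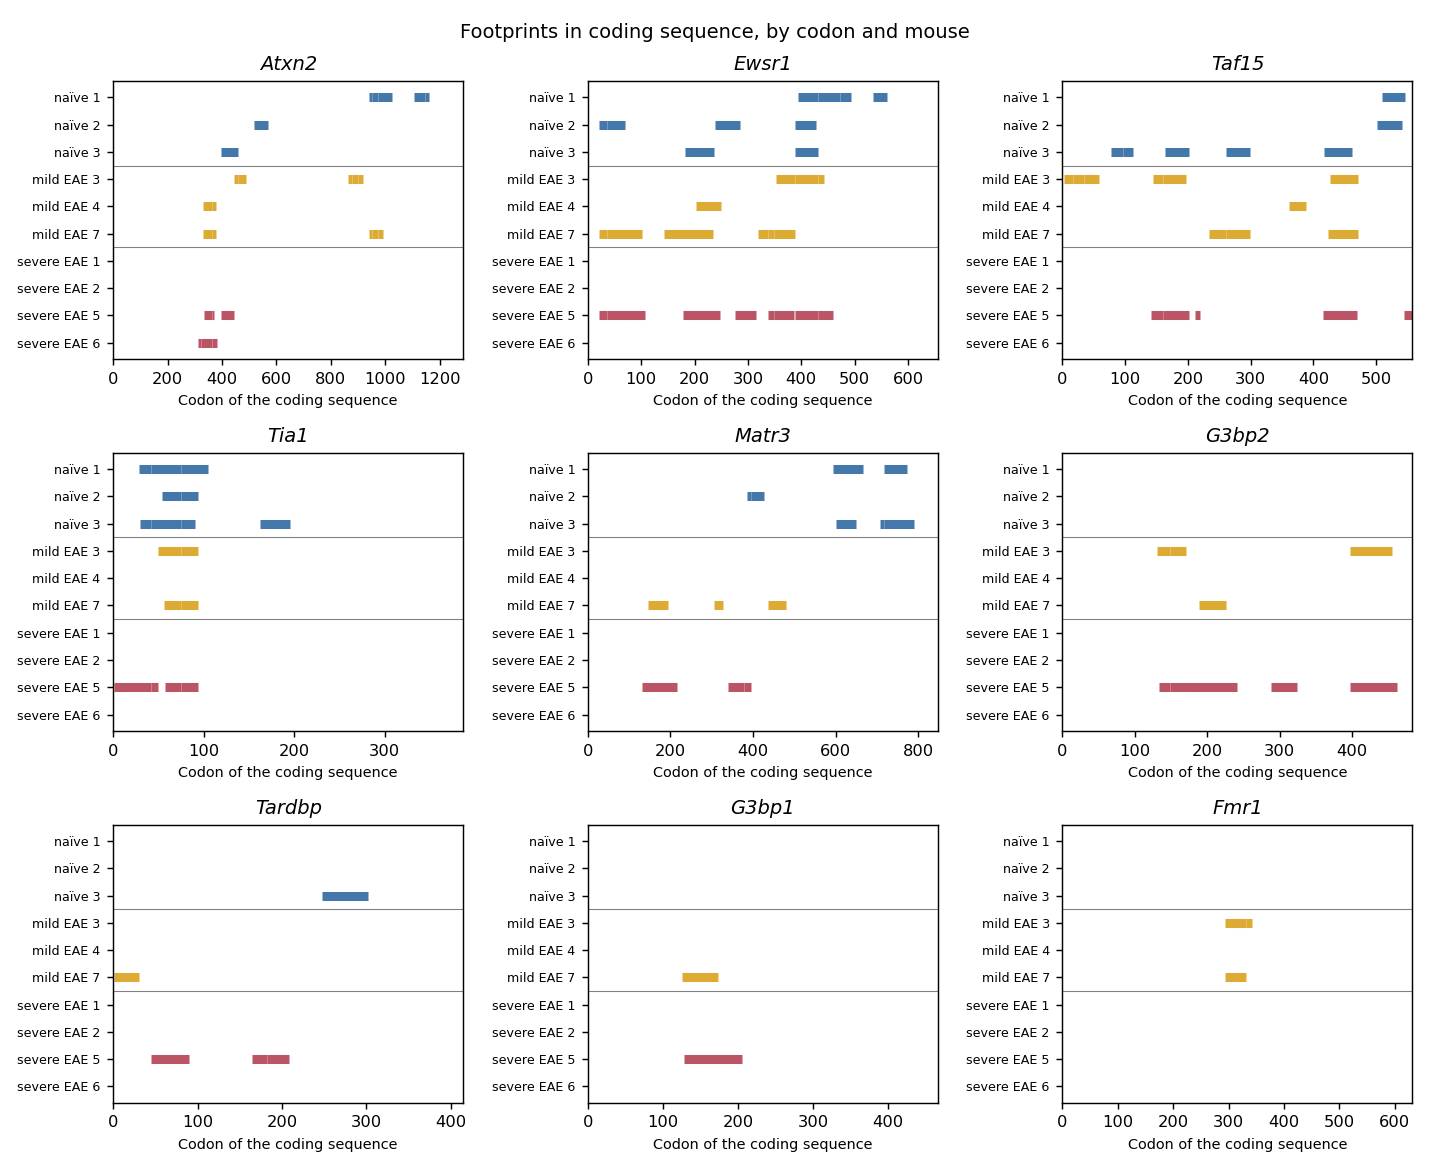
Position of the footprints along the coding sequence of the principal transcript of each gene, with the codon number on the x axis and 1 row per mouse, coloured by group (naïve blue, mild EAE yellow, severe EAE red). Footprint parts in UTRs, introns and exons outside the principal coding sequence are not drawn. Tia1 shows the same place in 6 mice, Atxn2 codons 321 to 382 appear in 4 EAE mice only, and Matr3 codons 593 to 789 in naïve mice 1 and 3 only.

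The study defines a high-quality footprint as a stretch of more than 1 nt found in at least 2 mice of a group. In naïve mice, 4 of the 9 genes had such a stretch (Ewsr1, Taf15, Matr3 and Tia1), where 10.6% of protein-coding genes did. In mild EAE mice 5 genes had one (Ewsr1, Taf15, Tia1, Atxn2 and Fmr1), beside 12.4% of protein-coding genes, and in severe EAE mice only Atxn2 had one, beside 3.23%. The group sizes are 3, 3 and 4 mice and the lists differ in length, so the counts of the groups are not set against each other. Without mild EAE mouse 7 the mild EAE count was 0, beside 6.26% of protein-coding genes, and without mild EAE mouse 3 it was 2, beside 6.81%. Without naïve mouse 1 the naïve count was 2, beside 5.16%. Leaving out severe EAE mouse 5 or 6 removed the Atxn2 stretch, and the shares were then 0.255% and 2.73%. Footprints in at least 5 mice were found in 5 of the 9 genes (Ewsr1, Taf15, Matr3, Tia1 and Atxn2) and in 14.4% of protein-coding genes.

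**Figure D4:**
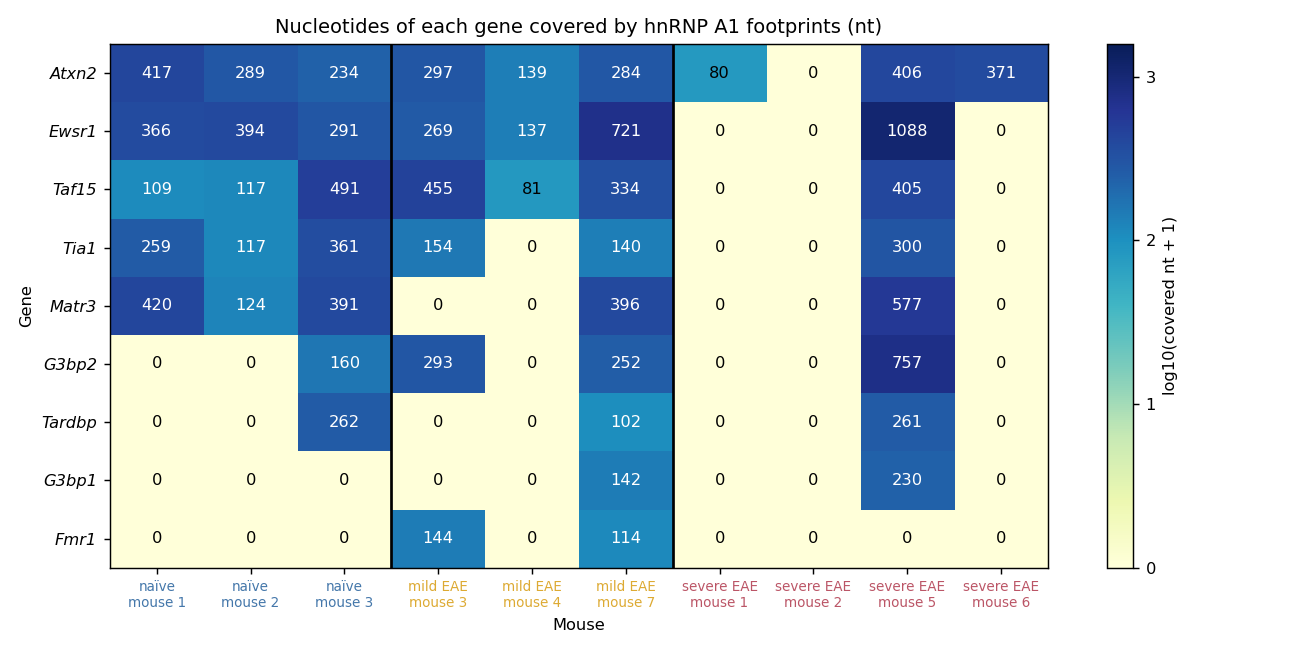
Nucleotides of each gene (rows) covered by footprints in each mouse (columns), printed in each cell in nt and coloured on a log10(covered nt + 1) scale. Black lines separate naïve, mild EAE and severe EAE mice. The upper 5 genes have values above 0 in every naïve mouse, and severe EAE mice 1, 2 and 6 are at 0 in every gene but Atxn2.

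To ask whether EAE changed the covered length, group means were compared for each of 7159 protein-coding genes with a footprint in at least 2 mice by a two-sided exact permutation test over mice, with Benjamini-Hochberg adjustment over all of them. For EAE against naïve mice, none of the 9 genes had an exact p of 0.05 or less, and over all genes 5.06% were lower in EAE at that threshold and 1 gene was higher. None of the 7159 genes passed the adjustment, and 363 had an unadjusted p of 0.05 or less. The lowest p was that of Tia1, with 246 nt ± 123 (SD, n = 3) in naïve and 84.9 nt ± 118 (SD, n = 7) in EAE, which differ by −161 nt (exact permutation p = 0.0917, adjusted p = 0.827). For Matr3 the means were 312 nt ± 163 in naïve and 139 nt ± 243 in EAE mice (exact permutation p = 0.367), and for Atxn2 313 nt ± 93.9 and 225 nt ± 154 (exact permutation p = 0.392). Ewsr1 had 350 nt ± 53.3 in naïve and 316 nt ± 427 in EAE mice, and Taf15 239 nt ± 218 and 182 nt ± 207. For Tardbp they were 87.3 nt ± 151 and 51.9 nt ± 99.8. EAE means were above naïve means for G3bp2 (186 nt ± 283 against 53.3 nt ± 92.4), for G3bp1 (53.1 nt ± 94.2 against 0) and for Fmr1 (36.9 nt ± 63.5 against 0). Exact p-values of these 6 genes lay between 0.533 and 0.925. The EAE mean was thus lower for 6 of the 9 genes, with a median difference of −35.5 nt, and for 60.9% of all genes tested, with a median of −23.2 nt, which is close to the list's own share. Leaving out severe EAE mice 1, 2 and 6, a choice made after the lists had been seen, turned the differences of Ewsr1, Taf15 and Tardbp to 203, 79.8 and 3.42 nt higher in EAE, while those of Tia1, Matr3 and Atxn2 stayed negative. Per 1000000 covered nt of the mouse, the Atxn2 mean was 659 nt higher in EAE, which rested on severe EAE mouse 6 with 4882 nt, while naïve mice had 107 to 188 and the other EAE mice 0 to 242. Without severe EAE mouse 6, a setting added after seeing the data, it was −20.6 nt, and per 1000000 mapped unique reads it was −47.4 nt. The Tia1 difference had an exact permutation p of 0.343 without these mice, 0.025 when the covered length was expressed per 1000000 covered nt of the mouse, and 0.00833, the smallest possible, per 1000000 mapped unique reads, with adjusted p of 0.944, 0.523 and 0.133. Under the latter scalings Matr3 had exact permutation p of 0.0417 and 0.0167 (adjusted p of 0.532 and 0.174), and Atxn2 0.767 and 0.0417 (1 and 0.267). Without severe EAE mouse 5 both Tia1 and Matr3 had an exact permutation p of 0.0357 (adjusted p = 0.439). Over all 7159 genes, 451 had an unadjusted p of 0.05 or less per covered nt, 1135 per mapped reads and 655 without severe EAE mouse 5, beside 363 in the unscaled comparison. By the study's list, naïve mouse 2 had the fewest mapped unique reads of the mice and severe EAE mouse 5 the most. The part of these divisors in the p-values was not tested.

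For mild EAE against naïve mice, 4 of the 9 genes had a lower mean in EAE, beside 48.4% of all genes tested, and 3 against 3 mice cannot give a p below 0.1. The lowest exact permutation p, 0.3, was that of Matr3 and Tia1. For severe EAE against naïve mice, 6 of the 9 had a lower mean, 2 a higher one and Fmr1 was at 0 in both groups, beside 67.7% of all genes with a lower mean. None of the 9 had an exact p of 0.05 or less, beside 2.47% of all genes that did and were lower. For severe against mild EAE, 5 of the 9 had a lower mean, beside 70.0% of all genes, and none had an exact p of 0.05 or less, beside 1.27% of all genes that did and were lower. The smallest exact p of the 9 genes was 0.143, for Fmr1, which was covered in 2 mild EAE mice and no severe EAE mouse. Because the 3 comparisons share mice, these values are not independent of each other.

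The footprints of the 9 genes lay mostly in coding sequence. Over the 10 mice 87.2% of the covered nt were coding, 2.26% UTR, 2.69% in exons of noncoding transcripts and 7.83% intronic, whereas over all protein-coding genes 50.3% were coding, 9.53% UTR, 1.06% noncoding exon and 39.1% intronic. The genes were not matched for length or intron content in this comparison. The coding share was higher in the 9 genes than in all protein-coding genes in 8 of the 9 mice that had a footprint in them. It was 95.5%, 86.6% and 82.9% in naïve mice 1, 2 and 3, beside 38.4%, 36.0% and 49.4% over all genes, and 97.8%, 100% and 89.8% in mild EAE mice 3, 4 and 7, beside 69.3%, 51.7% and 56.9%. In severe EAE mouse 5 it was 84.0%, beside 52.1%. Severe EAE mouse 6 had 57.1% from 4 footprints and severe EAE mouse 1 had 0% from 1 footprint, in an Atxn2 intron. The shares of naïve and EAE mice overlapped, for the 9 genes and for all genes. For all genes the overlap came from severe EAE mice 2 and 6 (25.9% and 37.2%, from 159 and 563 footprints). Each of the other EAE mice lay above every naïve mouse, the lowest being severe EAE mouse 1 with 51.2%. This was not tested. Only 7 of the 148 footprints had their midpoint in an intron and 2 in a UTR, 1 each in Tardbp and G3bp2.

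**Figure D5:**
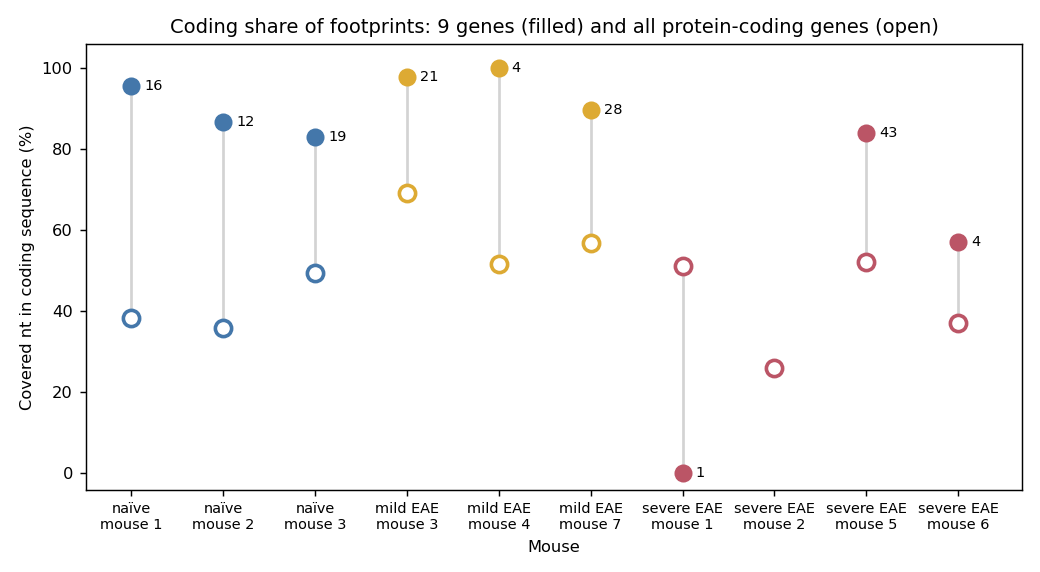
Share of covered nucleotides that lies in coding sequence (y axis, percent) in each mouse (x axis). Filled points are the 9 genes, with the number of footprints beside them, and open points all protein-coding genes; a grey line joins the values of 1 mouse. Filled points lie above open points in 8 of 9 mice, and severe EAE mouse 2 has no footprint in the 9 genes.

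Many of these footprints ended where exons end. Of the 148, 113 (76.4%) began at the first base or finished at the last base of an annotated exon, beside 52.8% over all protein-coding genes, and 14.2% did both, beside 9.86%. These shares are not matched for annotation class. A coding midpoint was found in 93.2% of the 148 footprints, beside 62.5% over all protein-coding genes. Whether the 9 genes differ in exon-edge ends among coding footprints was not tested. In 61 cases 2 neighbouring footprints of a mouse finished and began at the ends of 1 annotated intron, as the Tia1 exon 3 and 4 footprints did in 6 mice and those of Atxn2 exons 6 and 7 in 4. Since contigs were aligned in spliced mode, such a pair can come from 1 contig, and the 148 footprints are not 148 separate RNA fragments.

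UAG was present on the strand of the gene in 66 of the 148 footprints (44.6%), beside 49.5% of 102571 footprints of 18 to 249 nt that lay in a single other protein-coding gene. For AGGU the values were 31 footprints (20.9%) and 29.5%. The footprints of the 9 genes were shorter, with a median of 86 nt against 111 nt. With footprints whose midpoint was coding, where medians were 81 and 85 nt, UAG was present in 41.3% and 34.8%, and AGGU in 21.0% and 23.2%. The order of the UAG shares thus depended on the class compared. Windows were read on the strand of the annotated gene only, the 2 motifs can overlap by their AG, and a match is a stretch of letters and not a binding site. Several of the sites found in the most mice, namely Ewsr1 exon 12, Tia1 exon 3 and Atxn2 exon 7, held neither motif in any mouse, while the shared Tia1 exon 4, Taf15 exon 15 and Fmr1 exon 10 stretches did.

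Further RNA-binding proteins of stress granules and neurodegeneration were footprinted as well. Of a list of 30 such genes, 27 had a footprint in at least 1 mouse and 15 in at least 5 mice, and Usp10, Zfand1 and Ythdf1 had none. Among the 26 that were tested, 12 had a lower mean in EAE, the median difference was 19.5 nt, and none had an exact p of 0.05 or less. Among those with footprints in the most mice were Pabpc1, the cytoplasmic poly(A)-binding protein, in 8 mice, and Atxn2l, Caprin1 and Fxr2 in 7 each. Pabpc1 was covered over 313 nt ± 163 in naïve and 543 nt ± 470 in EAE mice. Atxn2l, the paralog of Atxn2, had 404 nt ± 122 and 489 nt ± 497, and Caprin1, a partner of G3BP1, had 291 nt ± 134 and 369 nt ± 441. Fxr2, a paralog of Fmr1, had 246 nt ± 114 and 211 nt ± 299. Each naïve value is a mean over 3 mice and each EAE value over 7, with the SD.

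The genes whose covered length followed the sum of the 9 genes most closely over the 10 mice were Hp1bp3 (r = 0.986), Ttc3 (0.986), Tmcc3 (0.976), Smarcc2 (0.974) and Trpm2 (0.973), among 3163 genes with footprints in at least 5 mice. The median r of those genes was 0.734, and all values come from the same 10 lists. Cell types were not separated. Lower coverage of a gene can come from fewer cells of a type, less RNA per cell, less binding by hnRNP A1 or a shorter footprint list. These cannot be told apart here. Of 9 markers of leukocytes and microglia, 8 had a footprint and Cd3e had none. Their summed length was 0 to 131 nt in naïve mice, 1218 to 3052 nt in mild EAE and 0 to 3662 nt in severe EAE, with Ptprc at 0 in all but 1 mouse. All 8 neuronal markers had footprints, with summed lengths of 3195 to 4993 nt in naïve, 2062 to 3359 nt in mild EAE and 0 to 8526 nt in severe EAE mice. All 6 oligodendrocyte markers and all 5 astrocyte markers had footprints too, with 1970 to 6826 nt and 1295 to 3198 nt in naïve, 2479 to 6635 nt and 2333 to 5136 nt in mild EAE, and 67 to 11060 nt and 0 to 9391 nt in severe EAE mice. The part of the cell makeup in the values of the 9 genes was not tested.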

How the data were processed

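Per the labels and the study's methods, the authors removed adapters with bcl2fastq 2.19.0.316 and fastp, built contigs per library with rnaSPAdes, placed the contigs on GRCm38 by spliced alignment (minimap2 2.17), subtracted sites of the matched input or of pooled IgG with bedtools, and merged overlapping sites without regard to strand. The deposited lists hold start and end positions only (no score, count or strand); input and IgG libraries were not analysed here. Assembly and subtraction can both remove a site, so a missing footprint is not a missing contact.

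Footprints were assigned to GENCODE M 21 gene spans (overlap of at least 1 nt) and covered nt summed per gene and mouse with Python 3.11.15 and numpy 2.4.6. Group means of 7159 genes footprinted in at least 2 mice were tested by exact permutation (two-sided) with Benjamini-Hochberg adjustment, tested on simulated data first. The exact tests set the difference of group means beside its values over all splits of the mice into groups of the same sizes. They treat all mice alike, although the footprint lists differed greatly in length. Sequences were read from the RefSeq GRCm38 genome with pysam 0.24.0, and figures drawn with matplotlib 3.10.9. Mice were grouped by their labels; the mild and severe classes follow the study's score ranges. The genes named among the other RNA-binding proteins were taken from the 5 footprinted in the most mice, of which 1 is not reported here, and those named by likeness the 5 with the highest r. The 9 genes, the lists and the tests were chosen with earlier results of these data known. The mapped unique reads used as divisors in 1 alternative are library totals listed by the study, in a supplementary table read from page images, and were not derived from the deposited lists. Alternatives covered footprint length, merging, annotation, scaling, gene filter, the replicate block and leaving out mice.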

Additional observations from a re-analysis of the deposited data

Results flagged for a closer look

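Severe EAE mouse 5 lay far above the other 3 severe EAE mice in 7 of the 9 genes. Its covered length was 261 nt in Tardbp, 1088 nt in Ewsr1, 405 nt in Taf15, 577 nt in Matr3, 300 nt in Tia1, 230 nt in G3bp1 and 757 nt in G3bp2, and the other severe EAE mice were at 0 in all 7. Summed over the 9 genes it had 4024 nt, and the gap to the next mouse was 0.908 of the range of the group. In Atxn2 that gap was only 0.0862 of the range, since severe EAE mouse 6 had 371 nt. The paper describes severe EAE mouse 5 as an outlier of its group, with a binding profile similar to that of naïve and mild EAE mice. The paper also reports that this mouse had been in remission shortly before the experiment ended. The list of severe EAE mouse 5 held 31870 footprints and the other severe EAE lists 209 to 2670, and the part of list length in these values was not tested. The threshold for such a gap is set to pass about 1 in 20 groups of normally distributed values, a rate that does not hold where the other mice are all at 0, the genes share the same mice, and groups of 3 were not examined in this way.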

How the results depend on the processing

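None of the 9 genes passed the adjusted threshold in any of the 4 comparisons, under 23, 16, 18 and 17 alternatives for EAE, mild EAE and severe EAE against naïve mice and for severe against mild EAE. This says little of stability, since no gene of 7159 passed in the unscaled comparisons and 3 against 3 mice cannot give a p below 0.1. For EAE against naïve mice the direction of Tia1, Matr3, G3bp2 and Fmr1 was kept in all alternatives that gave a value, and that of G3bp1 in all but the replicate block, where it was 0 nt, while that of 4 genes turned in some. The Tardbp difference became 0.0476 footprints when footprints were counted, 51.9 nt without naïve mouse 3 and 3.42 nt without the 3 mice with lists under 3000 footprints, a setting chosen after seeing the data. Ewsr1 became 18.8 nt without severe EAE mouse 1, 2 or 6 and 203 nt without all 3, and Taf15 became 69.1 nt without naïve mouse 3 and 79.8 nt without those 3 mice. Over all settings that leave out 1 mouse, the differences ran from −79.1 to 51.9 nt for Tardbp, from −162.5 to 18.8 nt for Ewsr1 and from −122 to 69.1 nt for Taf15. Atxn2 became 0.333 footprints when footprints were counted and 659 nt per 1000000 covered nt, or −20.6 without severe EAE mouse 6. The cause of these turns was not tested.

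Requiring a stretch in at least 3 mice of a group left 2 genes for the naïve group (2.63% of protein-coding genes), 0 for mild EAE (4.02%) and 0 for severe EAE (0.191%). Leaving out 1 mouse gave 2 to 3 genes for the naïve group, 0 to 4 for mild EAE and 0 to 1 for severe EAE, beside 4.95% to 7.67% of protein-coding genes for naïve mice and 6.26% to 9.34% for mild EAE, and 0.255% to 2.73% where the severe EAE count was 0. UAGG in place of UAG was present in 10.8% of the footprints, beside 17.5% of other footprints in the same length range. With footprints whose midpoint was coding, the shares were 10.1% and 6.92%, so their order also depended on the class compared.

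With the replicate number as a block, EAE and naïve mice share 3 numbers and severe EAE and naïve mice 2, the smallest possible p-values are 0.25 and 0.5, and 0 genes were called, which says nothing of stability. The numbers name different animals. No paired analysis was possible for mild EAE against naïve mice, because they share 1 number, or for severe against mild EAE, because they share none. Depth behind a footprint is unknown, and severe EAE rests largely on mouse 5.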
